A study of Mus musculus with 10 samples.

Results

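Endoglin and endothelial BMP signalling are represented here by 10 genes, the receptors Eng, Acvrl1, Bmpr2 and Tgfbr2, the signal transducers Smad1, Smad6 and Smad7, the target genes Id1 and Id3, and the ligand Tgfb1. They were taken by gene name from a deposited table of 29868 genes, and all 10 were found and passed the filter on low values (at least 0.5 FPKM in at least 5 libraries). The set was put together with the difference of Eng between the groups already known, so the differences of these genes between the groups are given as a description and not as a test. Expression was measured by poly(A) RNA sequencing in 10 libraries. The 5 Nav libraries came from the group of wild-type C57BL/6 male mice that received the CXCR2 antagonist navarixin by mouth at 1 mg/kg once daily for 4 weeks after ligation of the left anterior descending coronary artery. The 5 MI libraries came from mice with the same genotype and ligation that received saline. The mice were 8 weeks old at surgery, and the sampling day is not stated. The labels give separate replicates but not which mouse each came from, so the error below is the spread between libraries and may be technical in part. They name a batch that equals the group, so batch and treatment cannot be told apart.

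The libraries are labelled heart, but markers of heart muscle were nearly absent. Of 15 cardiomyocyte markers, 14 were in the table and all 14 averaged below 1 FPKM (mapped fragments scaled to transcript length and to sequencing depth), with a median of 0.0335 FPKM. The α-myosin heavy chain Myh6 averaged 0.0307 FPKM. Markers of the epithelium of the kidney tubule had a median of 106 FPKM over 14 genes, and the phosphate transporter Slc34a1 averaged 682 FPKM. Estimated depth was 16720000 to 20520000 fragments in the Nav group and 17860000 to 18740000 fragments in the MI group, and transcripts of the mitochondrial genome made up 25.98 to 45.4% of all FPKM in the Nav group and 24.4 to 40.6% in the MI group, most in Nav 2, MI 3, Nav 3 and MI 4. The values below are those of the tissue that these libraries hold, whatever its label.

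BMP and TGF-β ligands bind pairs of serine/threonine kinase receptors, in which a type II receptor phosphorylates a type I receptor. The type I receptor then phosphorylates a SMAD protein that enters the nucleus with SMAD4. In endothelial cells, the circulating ligands BMP9 and BMP10 bind ALK1, the product of Acvrl1, together with endoglin, a co-receptor at the cell surface without kinase activity. The signal passes through SMAD1 and its relatives and induces Id1, Id3 and the inhibitory SMAD6 and SMAD7. In humans, loss of 1 copy of ENG or ACVRL1 causes hereditary haemorrhagic telangiectasia, and variants of BMPR2 cause pulmonary arterial hypertension.

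The promoters of Eng, Tgfb1 and Smad6 are shown because Eng and Tgfb1 are the co-receptor and the ligand that were lower in the Nav group and Smad6 is a feedback target of the pathway. RefSeq promoter windows on GRCm38.p6, the same assembly as mm10, were matched for 7 of the 10 genes, and 4 windows lay wholly outside the gene as the table places it. The 250 bases before the RefSeq start are given 5′ to 3′ on the strand of the gene, with capitals marking the SMAD half-site GTCT or its reverse complement AGAC. The Eng window is chr2:32646345-32646594 (plus strand), the Tgfb1 window chr7:25686752-25687001 (plus strand) and the Smad6 window chr9:64022060-64022309 (minus strand).
Eng: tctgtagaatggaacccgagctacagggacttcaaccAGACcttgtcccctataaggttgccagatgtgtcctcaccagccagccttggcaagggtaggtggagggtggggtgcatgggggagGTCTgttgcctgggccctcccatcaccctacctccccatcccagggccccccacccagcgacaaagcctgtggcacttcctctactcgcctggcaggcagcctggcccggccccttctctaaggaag
Tgfb1: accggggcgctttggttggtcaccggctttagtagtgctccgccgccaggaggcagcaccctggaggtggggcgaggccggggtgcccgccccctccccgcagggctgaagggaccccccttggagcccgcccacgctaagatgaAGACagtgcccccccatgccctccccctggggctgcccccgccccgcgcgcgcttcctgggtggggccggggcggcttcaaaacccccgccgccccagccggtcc
Smad6: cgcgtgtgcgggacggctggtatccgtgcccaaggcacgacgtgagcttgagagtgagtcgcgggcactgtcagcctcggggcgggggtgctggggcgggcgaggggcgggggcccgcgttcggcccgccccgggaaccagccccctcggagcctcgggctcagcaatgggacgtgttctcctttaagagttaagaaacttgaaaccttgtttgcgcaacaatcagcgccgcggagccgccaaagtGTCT
The half-site occurred 2 times in the Eng window and 1 time each in those of Tgfb1 and Smad6. Among all 32851 promoter windows of this length, 82.9% held at least 1, so its presence is common. The core of the ETS site, GGAA or TTCC, which is recognised by endothelial factors such as ERG and FLI1, occurred 3 times in the Eng window and 1 time each in the others (93.4% of all windows held it). The GC-rich SMAD element GGCGCC, which is its own reverse complement, was not among the letters of these 3 windows (9.59% of all windows held it).

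Among the receptors, Eng and Acvrl1, the pair that binds BMP9 and BMP10, were lower in the Nav group, and Bmpr2 and Tgfbr2 differed little. Eng (chromosome 2 of mm10, 32646595 to 32682658) was at 3.87, 2.82, 3.04, 5.55 and 3.81 FPKM in Nav 1 to 5, against 11.4, 12.5, 12.9, 6.25 and 19.95 FPKM in MI 1 to 5. The groups did not overlap, and MI 4 lay much nearer to the Nav libraries than to the other MI libraries. The mean was 3.82 ± 1.07 FPKM in the Nav group and 12.6 ± 4.90 FPKM in the MI group (SD, n = 5 each), and the log2 difference on the log2(FPKM + 0.5) scale, on which all log2 differences below are given, was -1.55 (standard error 0.26). Its values rest on an estimated 198 to 1230 fragments per library, counted over its longest transcript. In bulk tissue, fewer endothelial cells and less RNA per endothelial cell cannot be told apart. The 3′ end of the gene overlaps Fpgs, on the opposite strand, by 50 bases, and the sources do not state whether strand was used in counting.

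Acvrl1 (chromosome 15, 101128522 to 101145336) was at 0.97, 0.68, 0.58, 1.24 and 1.03 FPKM in Nav 1 to 5, against 2.20, 1.97, 2.00, 0.90 and 2.69 FPKM in MI 1 to 5. Of the MI libraries, MI 4 alone lay within the Nav range, and the other 4 lay above every Nav library. The log2 difference was -0.78 (standard error 0.22), and it was -0.97 without MI replicate 4. An antisense gene, Gm16031, overlaps Acvrl1 by 1677 bases. The estimated fragments ran from 41.9 to 177 per library, so single values of this gene carry more counting error than those of Eng.

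Bmpr2, the type II receptor for BMPs, was at 2.18, 2.35, 2.33, 2.68 and 2.62 FPKM in Nav 1 to 5, against 2.48, 3.43, 1.49, 1.78 and 2.18 FPKM in MI 1 to 5. All Nav libraries lay inside the MI range, and the log2 difference was 0.12 (standard error 0.18). Another annotated gene, Gm38125, overlaps Bmpr2 by 3438 bases on the same strand. Tgfbr2, the type II receptor for TGF-β, was at 4.76, 3.54, 4.63, 4.43 and 4.66 FPKM in Nav 1 to 5, against 6.02, 6.90, 3.15, 4.49 and 5.83 FPKM in MI 1 to 5. Its Nav libraries also lay inside the MI range (log2 difference -0.20, standard error 0.19). Both type II receptors were lowest in MI 3, a library in which Eng was at 12.9 FPKM, and their spread was smaller between Nav libraries than between MI libraries (SD 0.210 FPKM in Nav and 0.747 FPKM in MI for Bmpr2, and 0.499 FPKM in Nav and 1.47 FPKM in MI for Tgfbr2).

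**Figure D1:**
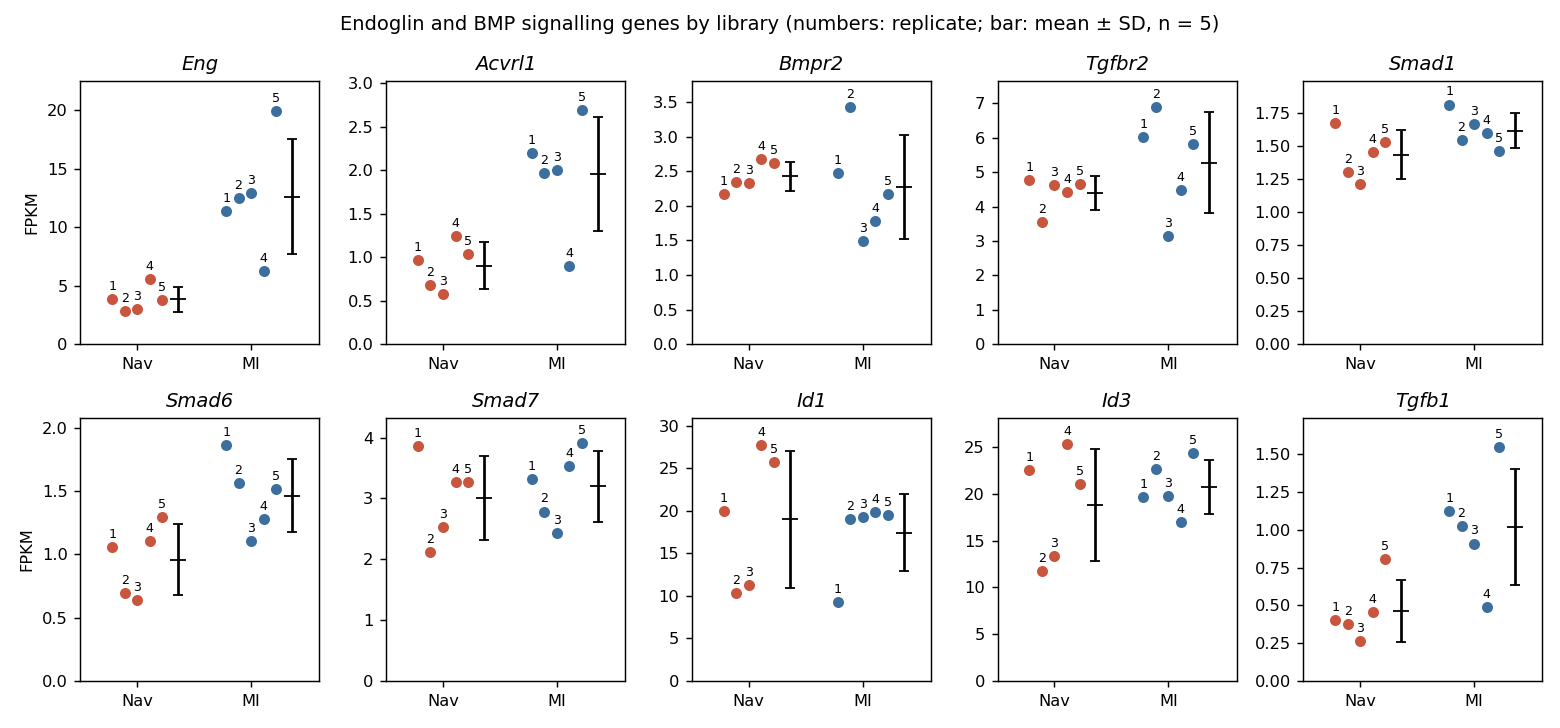
FPKM of the 10 genes in each library, with Nav libraries on the left (red) and MI libraries on the right (blue) of each panel, replicate numbers above the points and the mean ± SD (n = 5) as a bar. Eng is the gene whose groups do not overlap, at 2.82 to 5.55 FPKM in Nav and 6.25 to 19.95 FPKM in MI libraries, and for Id1 Nav 2 and Nav 3 lie at 10.3 and 11.3 FPKM while the other 3 Nav libraries lie at 20.02 FPKM or more.

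In the fit across all 13412 tested genes, Eng was the 1 of 10 genes past an adjusted p of 0.05 from limma, in the lower direction, where 0.35% of all tested genes were past it in that direction and 0.0149% in the other. Without any 1 of 8 libraries Eng was no longer past it (adjusted p = 0.053 to 0.108 from limma), and it stayed past it without MI 4 or without Nav 4. In those 8 fits, 1 to 23 of all tested genes were past it in either direction, against 49 in the fit of all 10 libraries. Without MI 4, Acvrl1 and Tgfb1 were also past it (adjusted p = 0.0102 and 0.0432 from limma), in a fit where 2.17% of all 13219 tested genes were past it in the lower direction. Eng was also the 1 of 10 whose groups did not overlap, with Nav lower, against 2.57% of all tested genes in that direction and 2.84% in either. Nothing is read from these counts, since the set was chosen with this comparison known. The median log2 difference was -0.19 over the 10 genes and -0.12 over all tested genes, and 8 of the 10 were below 0, against 9618 of the 13412. With libraries scaled by median-of-ratios size factors, the median over all tested genes was 0.01, and the log2 difference of Smad7 was then 0.05 in place of -0.08.

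The tested endothelial markers were lower in the Nav group, as Eng was. A list of 25 endothelial markers, which does not include the 10 genes, summed to 34.9, 29.7, 31.5, 68.2 and 42.8 FPKM in Nav 1 to 5, against 109, 120, 75.7, 56.1 and 126 FPKM in MI 1 to 5. Every one of the 24 tested markers had a log2 difference below 0 (median -0.83), where 9618 of all 13412 tested genes were below 0. Of the 24, 3 passed the test of limma, where 47 of all tested genes passed as lower. They were the receptor Robo4, the adhesion molecule Icam2 and the matrix protein Mmrn2. None of the 25 markers was at 0 in the mean, and Vwf, von Willebrand factor, was the lowest at 0.0675 FPKM. Kdr, the VEGF receptor 2, was at 0.976 ± 0.148 FPKM in the Nav group and 3.05 ± 1.39 FPKM in the MI group (log2 difference -1.17, adjusted p = 0.0673 from limma). Cdh5, VE-cadherin, was at 1.47 ± 0.151 and 2.68 ± 0.559 FPKM in Nav and MI libraries (-0.68, adjusted p = 0.0753 from limma). Pecam1 and Tek, a junction protein and the angiopoietin receptor, had log2 differences of -0.79 and -1.25, and Emcn, a sialomucin of venous and capillary endothelium, one of -0.98.

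Relative to this sum, Eng was still lower in 4 of 5 Nav libraries than in any MI library, and Acvrl1 was not. The sum adds FPKM, so it leans on its most abundant markers, Plvap, Egfl7 and Emcn (means of 15.8, 7.88 and 5.38 FPKM). Eng amounted to 11.1, 9.50, 9.64, 8.14 and 8.92% of the endothelial sum in Nav 1 to 5, against 10.5, 10.4, 17.1, 11.1 and 15.8% in MI 1 to 5. The groups overlapped through Nav 1, and MI 3 and MI 5 lay above all other libraries. The mean was 9.46 ± 1.09% in the Nav group and 13.0 ± 3.20% in the MI group (SD, n = 5 each). Acvrl1 amounted to 2.23 ± 0.409% in the Nav group and 2.01 ± 0.424% in the MI group (SD, n = 5 each). Macrophage markers, the list of another cell type that can express Eng, moved in the same direction, with a sum of 13.5 to 29.6 FPKM in the Nav group and 27.0 to 69.2 FPKM in the MI group over 9 genes. All 7 tested macrophage markers were below 0 (median -0.91) and none passed the test of limma (6 lower at an unadjusted p under 0.05). Of the 7 tested podocyte markers, Wt1 met the filter through the MI libraries alone and had to be lower in Nav, and the other 6 were also below 0 (none passed by limma, and 4 of these 6 were lower at an unadjusted p under 0.05). Pericyte and mesangial markers went both ways, with 4 of 9 below 0, of which 2 passed the test of limma, and a sum of 22.3 to 78.9 FPKM in the Nav group and 19.8 to 40.5 FPKM in the MI group. The part of these cell types in the values of Eng was not tested.

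**Figure D2:**
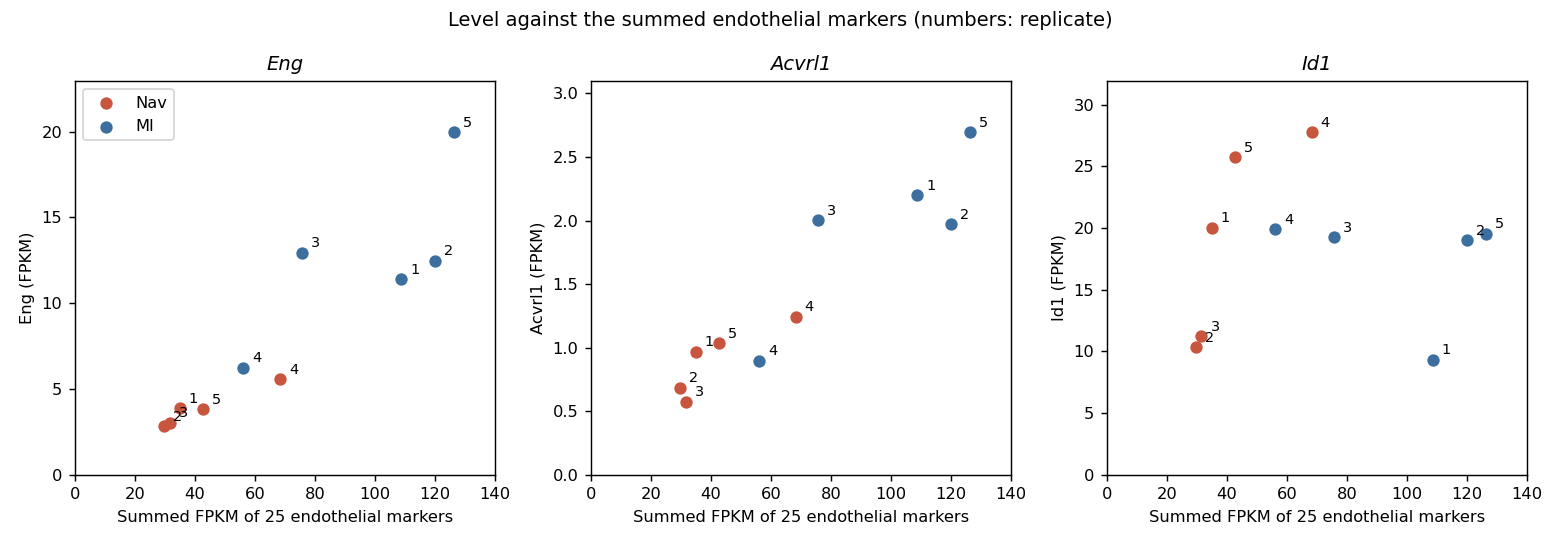
Eng, Acvrl1 and Id1 in FPKM (vertical axes) against the summed FPKM of 25 endothelial markers (horizontal axis) in each library, with Nav in red, MI in blue and replicate numbers beside the points. Eng and Acvrl1 lie low where the sum is low (Eng 3.04 FPKM in Nav 3 at a sum of 31.5 FPKM), MI 4 (sum 56.1 FPKM) and Nav 4 (68.2 FPKM) lie next to each other, and Id1 is at 20.02 to 27.8 FPKM in 3 Nav libraries whose sums are below those of 4 of the 5 MI libraries.

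Among the SMADs, Smad6 was lower in 3 Nav libraries than in any MI library, though the groups overlapped. Smad1 was also below the MI range in 3 Nav libraries, but its log2 difference was near the median of all tested genes (-0.12). Smad7 differed little. After median-of-ratios rescaling, the log2 difference was -0.01 for Smad1 and -0.33 for Smad6. Smad1, the transducer that BMP type I receptors phosphorylate, was at 1.67, 1.301, 1.21, 1.46 and 1.53 FPKM in Nav 1 to 5, against 1.82, 1.55, 1.66, 1.6005 and 1.46 FPKM in MI 1 to 5. It was the gene of the 10 with the smallest standard error (log2 difference -0.13, standard error 0.13). Smad6, which blocks BMP type I receptors and is itself induced by BMP, was at 1.06, 0.70, 0.64, 1.11 and 1.29 FPKM in Nav 1 to 5, against 1.86, 1.56, 1.10, 1.28 and 1.52 FPKM in MI 1 to 5. Nav 5 and Nav 4 lay inside the MI range, and the log2 difference was -0.44 (standard error 0.17). It rests on 37.8 to 99.2 estimated fragments per library. Smad7, an inhibitor of both the TGF-β and the BMP branch, was at 3.87, 2.12, 2.52, 3.26 and 3.27 FPKM in Nav 1 to 5, against 3.32, 2.78, 2.43, 3.53 and 3.92 FPKM in MI 1 to 5 (log2 difference -0.08, standard error 0.17). Nav 2 lay below the MI range and no Nav library above it.

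The target genes Id1 and Id3, which encode inhibitors of bHLH transcription factors, had small differences between the group means and a wide spread between Nav libraries. Id1 (chromosome 2, 152736251 to 152737410) was at 20.02, 10.3, 11.3, 27.8 and 25.8 FPKM in Nav 1 to 5, against 9.33, 19.0, 19.3, 19.9 and 19.5 FPKM in MI 1 to 5. In the Nav group 3 libraries lay above every MI library and 2 lay near MI 1, while the other 4 MI libraries lay within 1 FPKM of each other. The log2 difference was 0.06 (standard error 0.30), with a 95% interval of -0.58 to 0.71, which leaves the direction unresolved. It was 0.65 with array weights, which give less weight to libraries that deviate from their group, -0.14 without MI replicate 1, -0.10 without Nav replicate 4, -0.07 without Nav replicate 5 and 0.66 when Nav 2, Nav 3, MI 3 and MI 4, which had most mitochondrial RNA, were left out (chosen after seeing the data).

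Id3 (chromosome 4, 136143497 to 136145392) was at 22.6, 11.8, 13.4, 25.4 and 21.0 FPKM in Nav 1 to 5, against 19.7, 22.7, 19.8, 17.0 and 24.4 FPKM in MI 1 to 5. Nav 2 and Nav 3 were the lowest of all libraries and Nav 4 the highest, and MI 1, in which Id1 was low, was not low for Id3. The log2 difference was -0.18 (standard error 0.21, 95% interval -0.63 to 0.27). Relative to the endothelial sum, Id1 stood at 34.9 to 60.2% in the Nav group and 8.58 to 35.5% in the MI group, and Id3 at 37.2 to 64.8% and 18.1 to 30.3% in Nav and MI libraries. Other cell types also express Id genes, so these ratios do not give a level per endothelial cell.

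Nav 2 and Nav 3 set the lower end of the Nav group for Id1, Id3, Smad6, Smad7, Eng and Acvrl1, and they had the highest mitochondrial shares of the group (45.4 and 38.9%). Their size factors were 0.741 and 0.880, below the 1.04 to 1.076 of the other Nav libraries, against 0.925 to 1.18 in the MI group. After rescaling by these factors, Id1 was at 14.0 and 12.8 FPKM in Nav 2 and Nav 3 and at 19.2 to 26.04 FPKM in the other Nav libraries, so the gap for Id1 was smaller but present. For Eng, the same rescaling gave 3.80 and 3.45 FPKM in Nav 2 and Nav 3, beside 3.71 and 3.54 FPKM in Nav 1 and Nav 5. The part of the mitochondrial share in the remaining gap was not tested.

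**Figure D3:**
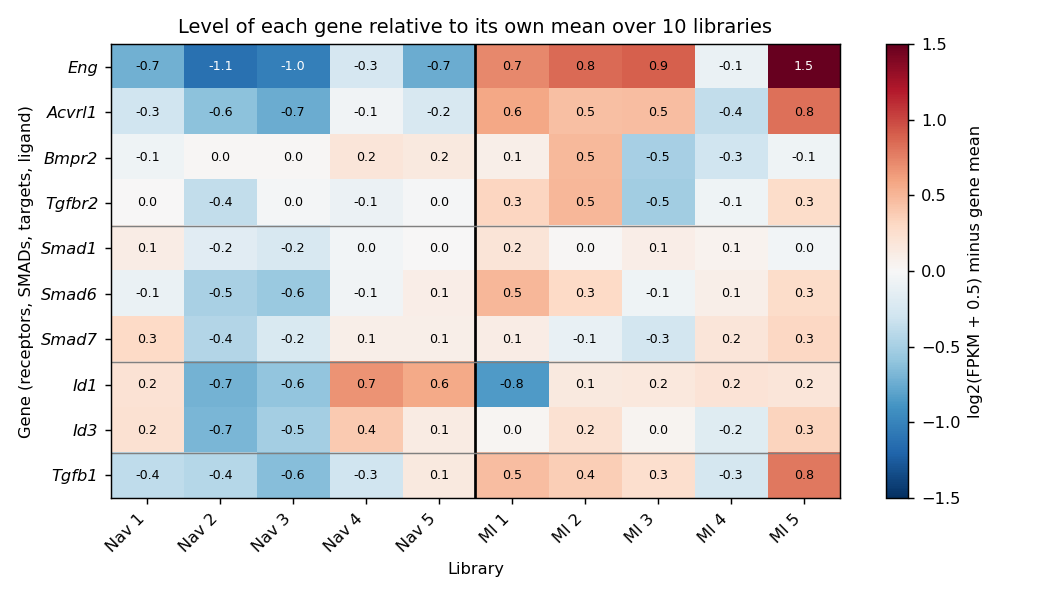
The log2(FPKM + 0.5) of each gene minus its mean over the 10 libraries, with Nav libraries in the left 5 columns, MI libraries in the right 5 columns, and lines between receptors, SMADs, targets and the ligand. Eng and Acvrl1 are below 0 in every Nav library and above 0 in every MI library but MI 4 (-0.10 and -0.37), while Id1 and Id3 are lowest in Nav 2, Nav 3 and, for Id1, MI 1 (-0.85).

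The ligand Tgfb1, transforming growth factor β1, had the lowest level of the 10 genes. It (chromosome 7, 25687002 to 25705077) was at 0.41, 0.38, 0.26, 0.46 and 0.81 FPKM in Nav 1 to 5, against 1.13, 1.02, 0.91, 0.49 and 1.55 FPKM in MI 1 to 5. Of the Nav libraries, 4 lay below every MI library, and Nav 5 lay above MI 4. The mean was 0.462 ± 0.206 FPKM in the Nav group and 1.02 ± 0.383 FPKM in the MI group (SD, n = 5 each), a log2 difference of -0.64 (standard error 0.20). At 13.4 to 71.7 estimated fragments per library the pseudocount is about as large as the values, so this log2 difference understates the ratio of the means, which was 0.453.

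The order of the levels, on the length-normalised FPKM scale, was not the same in the 2 groups. Id3 and Id1 had the highest levels in both groups, at 18.8 ± 5.96 and 19.0 ± 8.04 FPKM in the Nav group and 20.7 ± 2.88 and 17.4 ± 4.53 FPKM in the MI group, and did not differ from each other beyond their spread. Eng came next in the MI group at 12.6 ± 4.90 FPKM, above Tgfbr2 at 5.28 ± 1.47 FPKM. In the Nav group, Eng at 3.82 ± 1.07 FPKM lay below Tgfbr2 at 4.40 ± 0.499 FPKM, within the spread of both, and next to Smad7 at 3.01 ± 0.690 FPKM. Bmpr2, Smad1, Smad6, Acvrl1 and Tgfb1 followed in the Nav group, and Smad7, Bmpr2, Acvrl1, Smad1, Smad6 and Tgfb1 followed Tgfbr2 in the MI group.

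Within the groups, Acvrl1 was the gene of the set most like Eng, and the type II receptors were most like each other. After subtracting the mean of each group on the log2 scale, Eng had a Pearson correlation over the 10 libraries of 0.94 with Acvrl1, 0.77 with Tgfb1, 0.73 with Id3 and 0.38 with Id1. With the 5 named endothelial markers, the correlation of Eng was 0.79 for Pecam1, 0.74 for Kdr, 0.74 for Emcn, 0.65 for Tek and 0.52 for Cdh5. Bmpr2 and Tgfbr2 correlated with each other at 0.83 and with Eng at 0.25 and 0.27. Smad6 and Smad7 correlated at 0.67, and Id1 and Id3 at 0.76. These are descriptions over libraries that share depth and scaling. Of all tested genes, those most like Eng over the 10 libraries were Plxnd1, a semaphorin receptor of endothelium (r = 0.99), Mrc2, a collagen receptor (0.99), Il10ra, the interleukin-10 receptor of leukocytes (0.98), Robo4, a receptor of endothelial cells (0.98), and Irf7, an interferon response factor (0.97). After subtracting group means they were Ccl5, a T cell chemokine, Itgb7, a leukocyte integrin, Atp6v1g1, a proton pump subunit, Il10ra and Laptm5, a lysosomal protein of blood cells (r = 0.96 to 0.99). Atp6v1g1 had an r of -0.18 when the group means were kept, so its likeness to Eng lay within the groups. These genes were picked as the highest of 13412 values, and no p is given.

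The rest of the BMP and TGF-β pathway showed whether the ligands, receptors and regulators around these genes differed. Of 84 further pathway genes listed, 83 were in the table and 58 passed the filter. By limma, none of the 58 was lower or higher at an adjusted p under 0.05, where 0.365% of all tested genes passed in either direction. At an unadjusted p under 0.05, 11 were lower and none was higher, against 1544 lower and 167 higher of all tested genes. This tilt depends on the scaling. At the same limit, all tested genes gave 1055 lower and 989 higher after median-of-ratios rescaling, and 1321 and 722 after upper-quartile rescaling. The pathway genes were not counted at that limit on those scales. The median log2 difference of the 58 was -0.21, against -0.12 over all tested genes. Without MI replicate 4, Ltbp4, Lrrc32, Dll4 and Fstl1 passed, with log2 differences of -1.09, -1.06, -1.01 and -0.86, in the fit where 2.17% of all tested genes passed as lower. No pathway gene passed when any other single library was left out. For Eng, MI 4 was the MI library nearest to the Nav group, and the fit without it was picked out after its result was seen.

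Of the ligands, 5 of 17 passed the filter. Bmp4 was at 8.70 ± 1.28 FPKM in the Nav group and 11.5 ± 1.85 FPKM in the MI group (log2 difference -0.39, standard error 0.15, adjusted p = 0.32 from limma). Bmp6 and Bmp7, of which Bmp7 is a BMP of the kidney tubule, had log2 differences of 0.14 and -0.10. Gdf2, which encodes BMP9 and is made in the liver, was listed at 0 in all 5 Nav libraries and in 4 of the 5 MI libraries. Bmp10, the 1 of 18 listed ligands that was not found by name in the deposited table, could not be examined.

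Of the receptors, 9 of 10 were tested. The 3 of highest level were the activin type I receptor Acvr1b (log2 difference -0.38), the BMP type I receptor Bmpr1a (0.06) and the TGF-β type I receptor Tgfbr1 (-0.24). Acvr1, which encodes the BMP type I receptor ALK2, was at 0.76, 0.90, 0.90, 1.11 and 1.17 FPKM in Nav 1 to 5, against 1.79, 1.26, 1.29, 1.55 and 1.55 FPKM in MI 1 to 5. It and Fstl1, a follistatin-like secreted protein (log2 difference -0.73), were the 2 of the 58 whose groups did not overlap, both with Nav lower, against 2.57% of all tested genes. Acvr1 did not pass the test (adjusted p = 0.217 from limma), and both were named after their values were seen. Among the other SMADs, Smad4, Smad5 and Smad3 had log2 differences of -0.15, 0.11 and -0.27.

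Secreted and membrane regulators spread most widely, with log2 differences of -0.91 to 0.35 over 17 tested genes. The 3 of highest level, the BMP antagonist Sostdc1 and the BMP-binding proteins Twsg1 and Crim1, had values of -0.29, 0.04 and 0.02. Ltbp4, which binds latent TGF-β to the matrix, was at 0.935 ± 0.250 FPKM in the Nav group and 2.24 ± 0.669 FPKM in the MI group (log2 difference -0.91, standard error 0.20, adjusted p = 0.0834 from limma). Lrrc32, a membrane anchor of latent TGF-β1, was at 0.511 ± 0.169 and 1.42 ± 0.583 FPKM in Nav and MI libraries (-0.89, standard error 0.22, adjusted p = 0.113 from limma). Both were named after their values were seen. The intracellular regulators, 11 of 11 tested, lay between -0.41 and 0.0021, with Fkbp1a, which holds type I receptors inactive, at -0.08, the ubiquitin ligase Smurf2 at -0.36 and the SMAD corepressor Ski at -0.30.

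The other targets divided by gene. Id2, the most abundant of them, was at 105 ± 15.2 FPKM in the Nav group and 102 ± 18.6 FPKM in the MI group (log2 difference 0.06, standard error 0.16), and Id4 had a log2 difference of 0.14. Ccn1 and Ccn2, matricellular genes that TGF-β and other signals induce, had differences of -0.77 and -0.82 with standard errors of 0.40 and 0.36. Ccn2 ranged from 5.46 to 8.52 FPKM in the Nav group and from 5.87 to 29.5 FPKM in the MI group, so its mean in the MI group rested on a wide spread. Dll4, a Notch ligand of endothelial cells, was at 0.634 ± 0.137 FPKM in the Nav group and 1.602 ± 0.762 FPKM in the MI group (log2 difference -0.82, standard error 0.24, adjusted p = 0.168 from limma), and was named after its values were seen. Tmem100, a target of ALK1 in endothelium, was below the filter, at 0 to 0.304 FPKM in the Nav group and 0.0313 to 0.329 FPKM in the MI group.

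**Figure D4:**
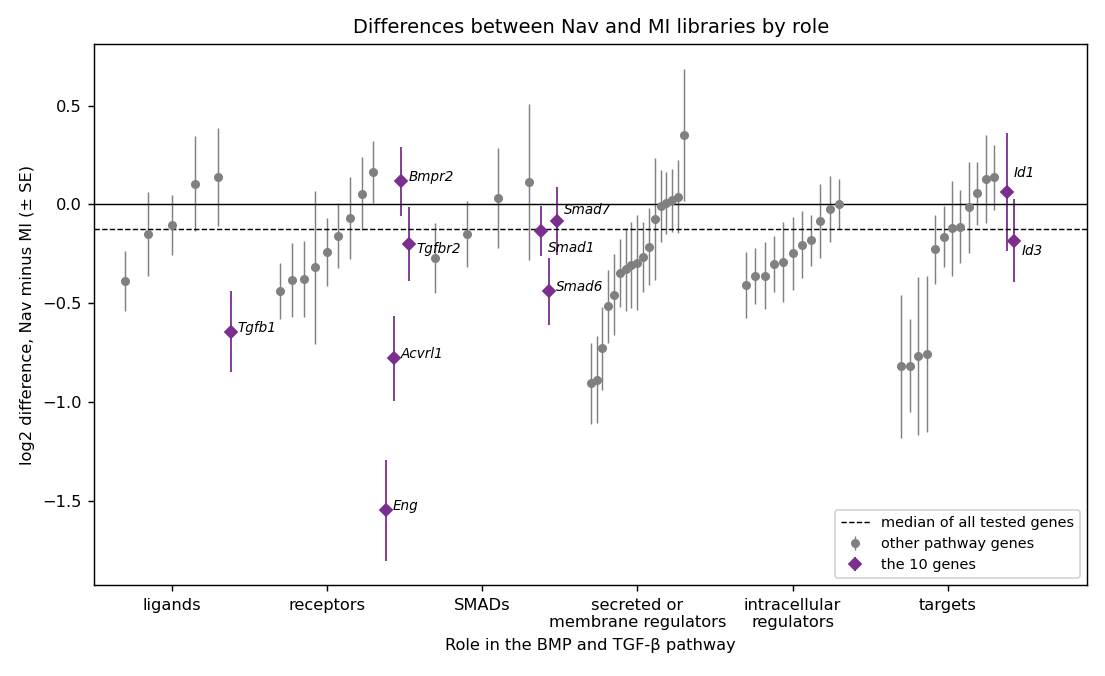
Log2 difference (Nav minus MI, ± standard error) of the 58 other tested pathway genes (grey circles) and the 10 genes (purple diamonds), grouped by role on the horizontal axis, with the median of all tested genes (-0.12) as a dashed line. On this scale Eng (-1.55) lies below every other pathway gene, of which the lowest is at -0.91, and the Id genes lie near 0. The pseudocount of 0.5 FPKM shrinks the differences of genes near 1 FPKM more than that of Eng. With a pseudocount of 0.1, Acvrl1 was at -1.003 in place of -0.78, and Eng at -1.64.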

How the data were processed

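The authors deposited FPKM values, 1 column per library, made from poly(A)-selected, strand-marked paired-end libraries. The submitters' processing notes name cutadapt 1.9, HISAT2 2.0.4, mm10 and StringTie 1.3.4d, without an annotation release. Whether counting used strand is not stated. DESeq2, the authors' test, needs counts, so limma 3.58.1 in R 4.3.3 (trend and robust) was fitted to log2(FPKM + 0.5) by group for 13412 genes (0.5 FPKM or more in 5 or more libraries), with Benjamini-Hochberg adjustment. FPKM count mitochondrial transcripts in the total. The libraries richest in them, Nav 2, Nav 3, MI 3 and MI 4, had the lowest size factors (0.741, 0.880, 0.925 and 0.979). With libraries rescaled to a common sum without mitochondrially encoded genes, the median log2 difference was -0.155 in place of -0.12. Whether the mitochondrial share lowers the other values was not tested. Depth is an estimate, from the length-multiplied FPKM that recurs most often among weakly expressed GENCODE M21 genes with 1 transcript, read as 1 fragment. The fit was also run on simulated data with errors drawn independently for each gene and library. Such data hold no effects that many genes of 1 library share, so nothing is read from that run about such effects.

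The 10 genes, the lists and the rule for naming genes were chosen with earlier results of these data known. The rule took the 10 genes, pathway genes past the test, those 3 of highest mean in each role, 5 endothelial markers, a few tissue markers and the 5 genes most like Eng. Alternatives were the pseudocount, the filter, 3 rescalings, array weights, eBayes without trend or robust, a replicate block and leaving out each library. The fits without 4 libraries and with the mitochondrial share as covariate were added after the data were seen. Figures were drawn with matplotlib 3.10.9.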

Additional observations from a re-analysis of the deposited data

Results flagged for a closer look

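In 4 of 86 groups of 5 libraries examined, 1 library lay far from the other 4 by Dixon's criterion (gap over range above 0.71), and chance alone gives about 1 in 20. Id1 was at 9.33 FPKM in MI 1, against 19.0 to 19.9 FPKM in the other MI libraries. Tgfbr2 was at 3.54 FPKM in Nav 2, against 4.43 to 4.76 FPKM in the other Nav libraries. In Nav 4, the endothelial markers Pecam1 (3.82 FPKM, against 1.71 to 2.21 in the other Nav libraries) and Emcn (8.14 FPKM, against 1.83 to 3.24) were both high. That library also had the highest Eng and the highest endothelial sum of its group.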

How the results depend on the processing

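The log2 difference of Eng kept its sign in all 22 settings (-1.77 to -1.37), and Acvrl1 (-1.003 to -0.61), Smad6, Smad1, Tgfbr2 and Tgfb1 (15 settings, since it fell below the filter in the others) also stayed below 0. Eng was under an adjusted p of 0.05 from limma in 12 of 22 settings, and over it without any 1 of 8 libraries (0.053 to 0.108), all but MI 4 and Nav 4. The set was chosen with the difference of Eng known, so these counts are a description and not a test. Signs turned only for values near 0. Smad7 was at 0.0505 after median-of-ratios and 0.0139 after upper-quartile rescaling, Id3 at 0.0127 with array weights, and without the 4 libraries of highest mitochondrial share Bmpr2 was at -0.0804, Smad7 at 0.0533 and Id3 at 0.0477. Id1, at 0.06, was at 0.65 with array weights and 0.66 without those 4 libraries. With 1 library left out, Id1 ranged from -0.14 to 0.25 and Smad7 from -0.168 to 0.0163. The 30 genes called (29 lower, 1 higher) over the whole table (adjusted p under 0.05 and log2 difference of at least 1) became 18 with a pseudocount of 1, 0 with no filter by limma (with 2490 lower and 319 higher where unadjusted p was under 0.05), 117 with array weights, 151 without the 4 libraries, and 1 to 194 with 1 library left out, the most without MI replicate 4. After median-of-ratios rescaling 17 were lower and 5 higher, and after upper-quartile rescaling 24 and 5. The pathway genes past the test, 0 of 58, became 4 with array weights, 4 without the 4 libraries, and 0 to 4 with 1 library left out. Same-numbered libraries of the groups did not deviate together (correlations of -0.22 to 0.05, and 1 of 10 libraries correlated best with its own number). Over 5 pairs, this check cannot show that they share nothing but the number. With the replicate block 6 genes were called and Eng had an adjusted p of 0.0893 from limma. Genes below 1 FPKM rest on few fragments at this depth.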

Other observations

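Among the mural cell genes, Pdgfrb, the PDGF receptor of pericytes and mesangial cells, and Itga8, an integrin of mesangial cells, were lower in the Nav group (0.914 to 1.19 FPKM in Nav and 1.72 to 4.57 FPKM in MI libraries for Pdgfrb, and 0.499 to 0.801 and 0.950 to 1.70 FPKM in Nav and MI libraries for Itga8). Their log2 differences were -1.11 and -0.78, with adjusted p of 0.0317 and 0.0445 from limma. The smooth muscle genes Acta2 and Myh11 of the same list had log2 differences of 1.32 and 1.18 and did not pass (adjusted p = 0.161 and 0.0703 from limma), and Myh11 was at 1.18 to 4.80 FPKM in Nav libraries and 0.469 to 0.933 FPKM in MI libraries, without overlap. These 4 genes were named after their values were seen. All 5 fibroblast markers had log2 differences below 0 (median -0.52) and 0 passed by limma (2 lower at an unadjusted p under 0.05). Of 4 lymphatic markers, 1 was tested, at 0.26, and of 14 tubule markers 8 were below 0 and none passed by limma (1 lower at an unadjusted p under 0.05).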
